A study of Mus musculus with 2 samples.

Results

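Type 2 conventional dendritic cells (cDC2) were taken from the CD45+ leukocytes of *Ptgs*-/- melanomas as cells that carried several transcripts known from this lineage and none of the transcripts that mark its closest neighbors. The members were chosen by these measured counts, so the counts that chose them are given as a description. A member had at least 1 unique molecular identifier (UMI, a tag that counts a transcript molecule once) of at least 3 of 8 genes, *Cd209a*, *Cd209d*, *Ddr1*, *Kmo*, *Dpp4*, *Flt3*, *Wnt11* and *Cbfa2t3*. It had 0 UMIs of 6 others, *Xcr1* and *Clec9a* of type 1 conventional dendritic cells (cDC1), *Fcgr1* of macrophages, *Siglech* of plasmacytoid dendritic cells, *Ccr7* of migratory dendritic cells and *Cd3e* of T cells. The rule found 501 cells among the 9798 that passed the quality limits, 221 of 5292 in the library from control hosts and 280 of 4506 in the library from NK cell-depleted hosts. No barcode was shared between the members of both libraries (0 cells), while 7 barcodes were shared among the 11651 cells called in all.

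Both groups of hosts were C57BL/6 mice, 8 weeks old, that had received *Braf*-mutant melanoma cells deficient in *Ptgs*, the genes of the cyclooxygenases that make prostaglandins, and leukocytes were sorted on day 4. Control hosts were not treated further, and the NK cell-depleted hosts were given 200 µg of anti-NK1.1 and 30 µg of anti-asialo GM1 on days 0 and 2. The tumors of a group were pooled, parental melanoma cells were added to both samples, and each group gave 1 library. The genotype label of both samples reads wild-type whereas the titles name the knockout, a conflict that touches both groups alike. With 1 library per group nothing was tested, no difference had a replicate check, and every interval given is a 95% interval that covers counting error only.

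Conventional dendritic cells take up antigen in tissue, carry it to lymph nodes and present it to T cells. They arise from bone marrow precursors under the growth factor FLT3L and its receptor FLT3, and they express the transcription factor ZBTB46. The type 2 lineage depends on IRF4, carries C-type lectins and SIRPα, and presents antigen on MHC class II, largely to CD4+ T cells. Inflamed tissue also holds monocytes that take on parts of this program, so several of its surface molecules are shared with monocyte-derived cells. NK cells are a source of FLT3L, CCL5 and interferon (IFN)-γ in tumors.

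The members were deeper than the leukocytes at large, whose medians were 4170 and 4893 UMIs. They held 1523428 UMIs in the control library and 1969287 in the NK cell-depleted library, with medians of 6349 and 6475 UMIs and of 2277 and 2326.5 genes per cell. The mitochondrial share had medians of 3.68% and 4.12%. Levels are given as counts per 1000000 (CPM) of the summed UMIs of all members of a library.

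The 8 genes that chose the members did so unevenly. *Cd209a*, a C-type lectin, stood at 1400 CPM in control members and 1446 CPM in NK cell-depleted members, and the transcriptional corepressor gene *Cbfa2t3* at 544 and 539 CPM. A UMI of *Cd209a* was seen in 201 of 221 and 235 of 280 members, and one of *Cbfa2t3* in 209 and 266. *Kmo*, an enzyme of tryptophan breakdown, was at 168 and 140 CPM, and the peptidase gene *Dpp4* at 110 and 116 CPM. The collagen receptor gene *Ddr1* had 80.7 and 96.5 CPM. *Flt3* had 80.7 CPM in control members and 140 CPM in NK cell-depleted members, 1.74-fold more in the latter (1.40 to 2.16). *Wnt11* had 53.2 and 85.3 CPM, and the lectin gene *Cd209d* went the other way with 133 and 75.2 CPM. These values describe the choice, since each of these genes was used to make it. The commonest combination, *Cd209a* with *Kmo* and *Cbfa2t3* and no other gene of the 8, accounted for 28 control and 13 NK cell-depleted members.

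*Cbfa2t3*, *Dpp4* and *Flt3* were also found in other dendritic cells. *Cbfa2t3* was at 590 and 699 CPM in cDC1 and at 559 and 558 CPM in migratory dendritic cells, and *Dpp4* was at 153 and 186 CPM in cDC1. *Flt3* was higher in cDC1, at 306 and 434 CPM, than in the members. *Cd209a* was at 35.5 and 34.7 CPM in monocytes and macrophages. Its 0 UMIs in the cDC1 of both libraries were set by choice, since cells with *Cd209a* were left out of them. The compared cells were set by their own markers. They held 28 and 43 cDC1, 76 and 54 migratory dendritic cells and 1951 and 1701 monocytes and macrophages.

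**Figure D1:**
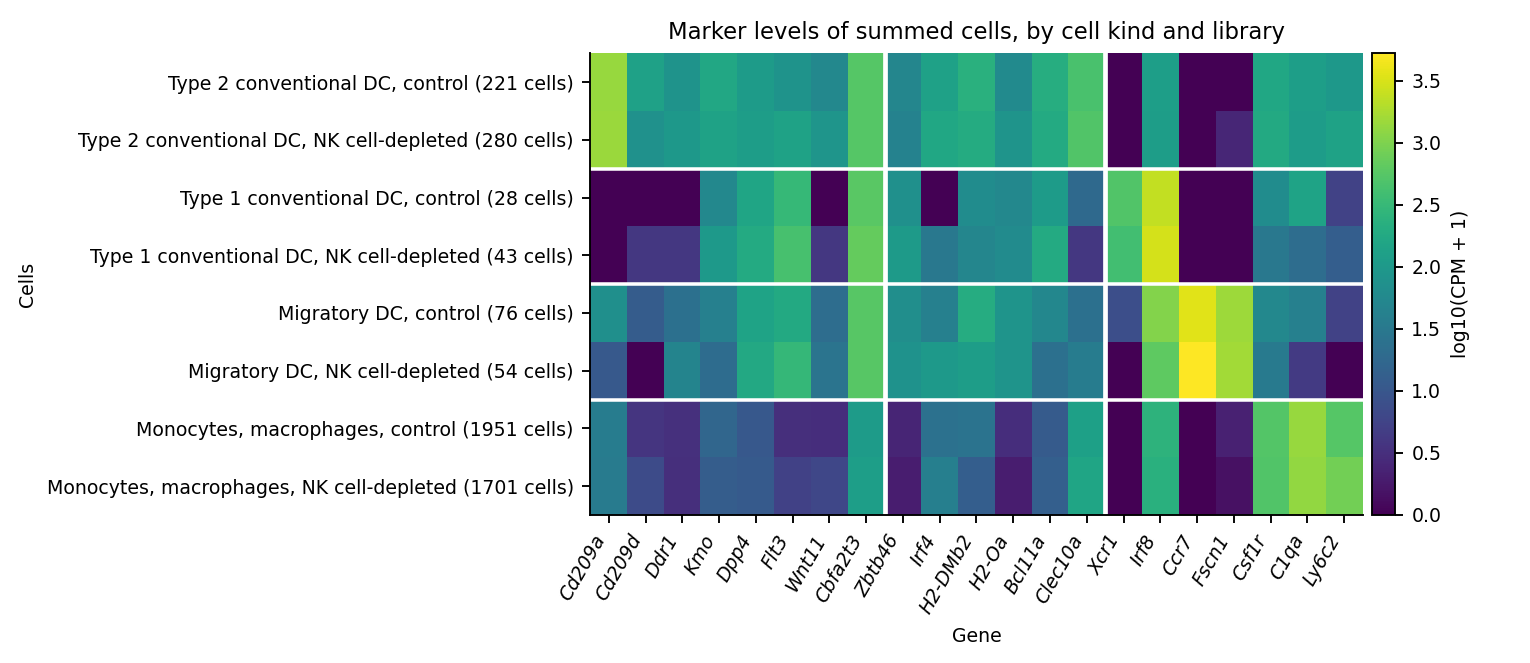
Level of selected genes (columns) as the color of log10(CPM + 1), in the members, cDC1, migratory dendritic cells and monocytes and macrophages of each library (rows). White lines part the 8 genes of the rule from markers of conventional dendritic cells and those of other kinds. *Cd209a* was at 1400 and 1446 CPM in the members and at 35.5 and 34.7 CPM in monocytes and macrophages.

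Classical dendritic cell markers outside the rule were present. *Zbtb46*, the transcription factor of the conventional lineage, was at 49.2 and 44.2 CPM in the members and at 1.43 and 1.01 CPM in monocytes and macrophages. *Irf4* had 133 and 164 CPM, and *Sirpa* had 435 and 426 CPM. Over the 11 genes of the classical dendritic cell list found in the files, the summed level was 2387 and 2310 CPM in the members, 1500 and 1988 CPM in cDC1, 1372 and 1041 CPM in migratory dendritic cells and 1136 and 1129 CPM in monocytes and macrophages. A *Zbtb46* UMI was seen in 57 of 221 and 56 of 280 members, against 1 of 145 and 0 of 108 T cells at medians of 2422 and 2702.5 UMIs. After every member was thinned to 2000 UMIs, which left out 3 and 5 shallower ones, the shares were 7.80% and 9.09%.

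Transcripts of monocytes and macrophages were also there. The 10 genes of their marker list summed to 810 CPM in control and 970 CPM in NK cell-depleted members. In monocytes and macrophages themselves the sums were 7261 and 6651 CPM. Those cells had been chosen by genes of this list, and *Fcgr1*, required in them, was absent from the members by rule. *Csf1r*, the receptor for the macrophage growth factor, had 166 and 181 CPM, and *Ly6c2*, a marker of inflammatory monocytes, had 96.5 and 139 CPM. At least 2 of the 10 markers were detected in 96 control members (43.4%, 36.8 to 50.3) and 134 NK cell-depleted members (47.9%, 41.9 to 53.9). Neither *Flt3* nor *Zbtb46* gave a UMI in 109 control members (49.3%) and 109 NK cell-depleted members (38.9%). The members were thus mixed in this respect, and named results that turned on the cells rich in monocyte markers are given below with and without them.

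Markers of other dendritic cells were below their own kinds. The compared cDC1 and migratory dendritic cells had been chosen by genes of these same lists, so those gaps were in part set by the choice. The cDC1 list, of which 8 of 10 genes had a UMI and *Xcr1* and *Clec9a* were at 0 by rule, summed to 1114 and 1037 CPM in the members and to 7228 and 8685 CPM in cDC1, against 842 and 920 CPM in monocytes and macrophages. The migratory list, with *Ccr7* at 0 in the members by rule, summed to 51.2 and 58.9 CPM against 10211 and 12148 CPM in migratory dendritic cells. The plasmacytoid list had 193 and 184 CPM, with *Siglech* at 0 by rule. The T and B cell lists had no more than 16.2 CPM in either library, with *Cd3e* at 0 by rule. Melanocyte and mast cell markers were at 0 in both libraries, although melanoma cells had been added to the samples. NK cell markers summed to 44.0 CPM in control members, where 41 UMIs of *Gzma* lay in 3 cells, and to 0 in NK cell-depleted members. Neutrophil markers went the other way, with 17.1 and 75.7 CPM. *S100a8* had 6 and 52 UMIs and *S100a9* had 4 and 51 UMIs in control and NK cell-depleted members. At least 2 neutrophil markers were found in 2 NK cell-depleted members and 0 control members. A setting that was not planned left out members with at least 2 NK, B, neutrophil or T cell markers. There the median log2 ratio of 3 neutrophil genes was 0.37, against -2.64 with all members. Of 6616 genes, 37 were at least 2-fold higher in control members and 61 lower, and the 24 genes named for the comparison kept their direction. What single foreign transcripts add was not tested.

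Levels of some transcripts outside the rule changed with the number of the 8 genes found in a cell. Of the control members, 87 carried 3 of the 8 genes, 59 carried 4 and 75 carried 5 or more, and of the NK cell-depleted members 100, 68 and 112 did. Just outside the threshold stood 106 control and 127 NK cell-depleted cells with 2 of the 8 genes and none of the 6 others. The complement gene *C1qa*, a macrophage transcript that the rule did not use, was at 380 CPM in the control cells just outside, at 290 CPM in those with 3 genes, at 33.6 CPM in those with 4 and at 3.68 CPM in those with 5 or more. In the NK cell-depleted library it ran from 264 through 258 and 80.2 to 11.5 CPM. *Bcl11a*, a transcription factor of dendritic cell precursors, ran the other way, from 49.9 through 94.4 and 264 to 284 CPM in the control library and from 37.3 through 97.9 and 159 to 277 CPM in the NK cell-depleted library. In CPM the largest step in *C1qa* thus lay between 3 and 4 markers, not at the threshold. By fold it lay between 4 and 5 or more. Not every gene checked was ordered in this way. *Itgax*, a gene of the classical dendritic cell list, fell in the control library from 325 through 293 and 245 to 156 CPM. *Zbtb46* ran from 15.8 through 43.0 and 52.8 to 39.5 CPM in the NK cell-depleted library.

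At least 3 of the 8 genes were seen in 397 control and 457 NK cell-depleted cells, of which the 6 genes required at 0 left 221 and 280. *Fcgr1* removed most, with a UMI in 91 and 80 of them. Those cells had 534 and 653 CPM of *Ly6c2*. *Ccr7* had a UMI in 41 and 41 of the cells left out, *Clec9a* in 38 and 50, and *Xcr1* in 20 and 33.

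Leaving out the genes of the rule, the genes with the highest level in the members over all other cells were, in order of the mean log2 ratio of both libraries, *Cdh1*, *Ctnnd2*, *Bcl11a*, *Ffar2*, *H2-Oa*, *Mgl2*, *Klrd1*, *H2-DMb2*, *Rtn1*, *Cd7*, *Sept3*, *Fgfr1*, *Zbtb46*, *Cd209c*, *Siglecg*, *Lmo1*, *Klrb1b*, *Ifitm1*, *H2-Ob* and *Clec10a*. Of 5901 genes seen in at least 10% of the members of each library, 20 (0.339%) stood at least 4-fold above the other cells in both. They were 7 genes of the rule, led by *Cd209a* at 23.8-fold and 22.3-fold, and 13 of the genes just listed, while the other 7 listed were under 4-fold in 1 library. *Cdh1*, which encodes the adhesion molecule E-cadherin, was at 134 CPM in members and 13.9 CPM in other cells of the control library, 7.34-fold after 5 CPM were added to both. In the NK cell-depleted library it was at 114 and 10.4 CPM, or 7.72-fold. Among the members it was uneven, at 339 CPM in the *Spint1* cluster given below and at 46.8 CPM in the other members. *Ctnnd2*, a catenin that binds cadherins, was 8.08-fold and 6.41-fold higher. *Mgl2*, a galactose-binding lectin of this lineage, had 1023 against 186 CPM and 699 against 115 CPM. *Clec10a*, its close relative, had 450 against 107 CPM and 509 against 128 CPM. *H2-Oa* and *H2-DMb2*, which tune peptide loading of MHC class II, were 4.97-fold and 5.18-fold higher in the control library and 7.09-fold and 5.99-fold higher in the NK cell-depleted library. *Ffar2*, a receptor for short-chain fatty acids, was 7.31-fold and 5.22-fold higher.

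*Klrd1*, *Cd7* and *Klrb1b*, which NK cells also carry, differed more between the other cells of both libraries than between the members. *Klrd1*, a receptor subunit, was at 201 and 191 CPM in the members and at 63.1 and 14.0 CPM in the other cells of the control and NK cell-depleted libraries. *Cd7* had 77.5 and 65.5 CPM in the members and 18.7 and 5.31 CPM in the others. *Klrb1b* had 121 and 134 CPM in the members and 38.2 and 16.6 CPM in the others. All these values describe the cells that the rule had chosen.

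Clustering of the members alone gave 7 clusters, each with cells of both libraries. The clusters are called here by their leading genes and describe how the members vary among themselves. *Cbfa2t3* was seen in 91.9% to 96.4% of the cells of every cluster.

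The 3 largest clusters had *Cd209a* in quantity, with a median of 2, 1 and 1 monocyte and macrophage markers per cell. The first, of 120 cells, was led by *Spint1*, *AA467197*, *Plet1* and *Mmp14*. In it *Cdh1* was at 339 CPM against 46.8 CPM in the other members, and *Mgl2* at 1638 against 561 CPM. *Itgax*, which encodes CD11c, was seen in 90.8% of its cells. The chemokine gene *Ccl17* was at 376 CPM there and the TAM receptor gene *Axl* at 291 CPM. *Csf1r* was higher than in the other members, at 262 against 144 CPM, and *Flt3* lower, at 84.0 against 125 CPM. *Zbtb46* was higher too, at 79.6 against 34.8 CPM with a UMI in 40.8% of its cells. *Ly6c2* was lower, at 27.6 against 153 CPM, while *C1qa* had 112 against 120 CPM and *Cd14* 207 against 237 CPM. In the second, of 110 cells and led by *Egr3*, *Tnf* and *St8sia6*, the activation marker gene *Cd83* was at 1652 CPM, *Fos* at 4119 CPM, *Cd209a* at 2032 CPM and *Wnt11* at 159 CPM. The third, of 105 cells, was led by *Cd7* at 286 CPM, *Irf8* at 413 CPM, *Gria3*, *Hrh1* and *Satb1*, with *Flt3* at 229 CPM.

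A cluster of 60 cells went against the label. It was led by *Retnla* at 9813 CPM and *Lyz1* at 937 CPM, a secreted protein and a lysozyme of macrophages, with *Arg1* at 159 CPM and *Il6* at 244 CPM. Its *Flt3* level was 4.97 CPM, with a UMI in 1.67% of cells, *Cd209a* was at 215 CPM and *Zbtb46* at 8.29 CPM, while *C1qa* was at 457 CPM. The cells held a median of 3 monocyte and macrophage markers and of 10155 UMIs. A second cluster rich in such markers, of 44 cells, was led by *Hp*, *Ly6c2* at 940 CPM, *Mgst1* and *Thbs1* at 478 CPM. It had *Cd209a* at 1585 CPM and *Flt3* at 99.5 CPM but *Zbtb46* at 11.9 CPM and *Csf1r* at 382 CPM.

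The remaining clusters were small. The *Hpgd* cluster, 37 cells with *Dusp2* at 658 CPM and *Cd79b* at 40.8 CPM, had the most *Flt3*, at 309 CPM with a UMI in 73.0% of cells. *Il1b* was at 4548 CPM there. The last, of 25 cells, was led by *Birc5*, *Top2a* at 972 CPM and *Mki67* at 664 CPM, genes of dividing cells, and its cells carried a median of 19 of the 30 cell cycle genes. At least 10 cell cycle genes were seen in 23 control members (10.4%) and 22 NK cell-depleted members (7.86%), counts that depend on depth. When all 9798 cells were clustered, 294 members (58.7%) fell into 1 cluster of 534 cells led by *Sept3*, *Cd209a*, *Flt3* and *Xcr1*, 98 (19.6%) into one led by *Ccl22*, *Fscn1*, *Ccr7* and *Ccl17*, and 52 (10.4%) into one led by *Retnla*, *Il6* and *Lyz1*. The *Spint1* cluster made up 92 of those 98 members, and only 13 of its 120 cells fell into the cluster led by *Sept3*, *Cd209a* and *Flt3*. Its leading genes *Spint1*, *Htra3* and *AA467197* also led a cluster of 701 cells that held 9 members.

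**Figure D2:**
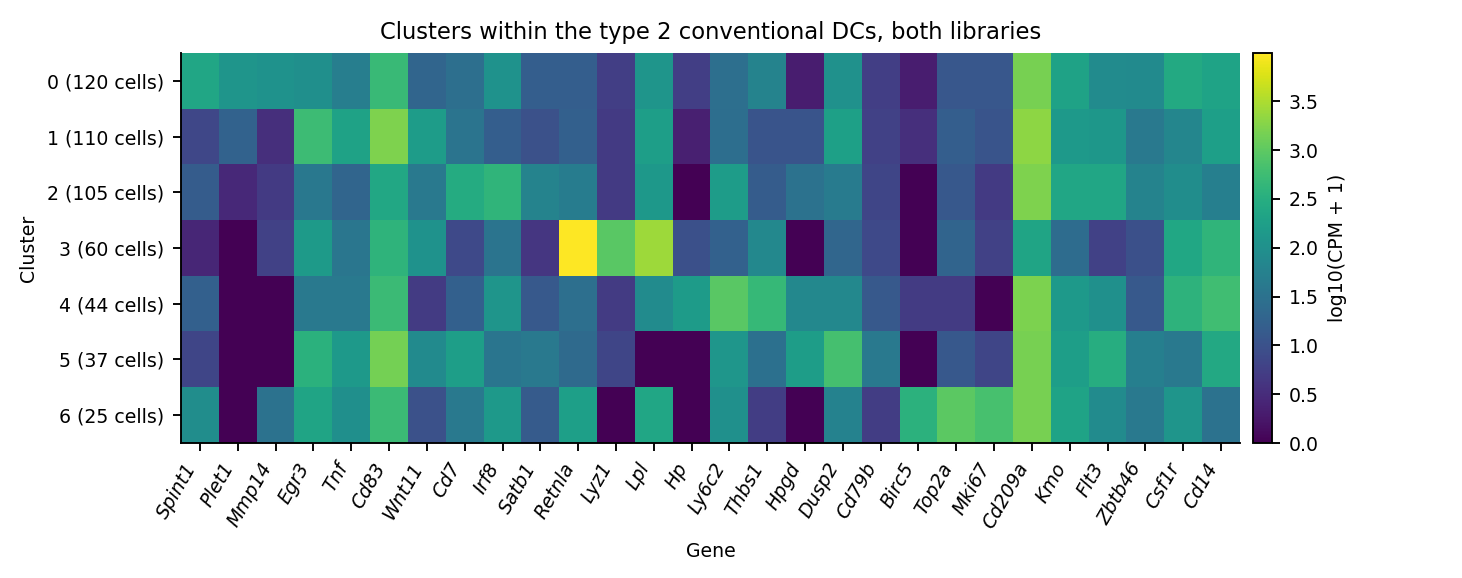
Level of selected genes (columns) as the color of log10(CPM + 1) in the 7 clusters of the members (rows, from the *Spint1* cluster of 120 cells at the top to the *Birc5* cluster of 25 cells), both libraries together. *Flt3* was at 4.97 CPM in the *Retnla* cluster and at 309 CPM in the *Hpgd* cluster, and *Top2a* was highest in the smallest cluster.

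The share of leukocytes that met the rule was lower in the control library. It was 4.18% (3.65 to 4.75) in control and 6.21% (5.53 to 6.96) in NK cell-depleted tumors, a ratio of 0.672 (0.561 to 0.805). NK cells took part of the control library and nearly none of the other. With cells that carried at least 2 NK cell markers left out of the total, the ratio was 0.746 (0.622 to 0.894). It was 0.748 (0.588 to 0.951) when every cell was thinned to 2000 UMIs, which left 131 of 4084 and 153 of 3567 cells. Over all alternatives it lay between 0.582 and 0.748. Without the members that carried at least 2 monocyte markers it was 0.729 (0.569 to 0.932), and without both clusters rich in them it was 0.728 (0.594 to 0.891). Whether pooled tumors of the same group differ by as much was not measured.

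cDC1 had a lower share in the control library as well, 0.529% against 0.954%, with a ratio of 0.554 (0.332 to 0.913). Migratory dendritic cells had 1.44% and 1.20%, a ratio of 1.20 (0.834 to 1.73), and monocytes and macrophages 36.9% and 37.7%, a ratio of 0.977 (0.915 to 1.04). Among the 3 kinds of dendritic cells the members made up 68.0% in control and 74.3% in NK cell-depleted tumors, a ratio of 0.916 (0.764 to 1.1) whose interval spans 1. There were 7.89 members for each cDC1 in the control library and 6.51 in the other.

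**Figure D3:**
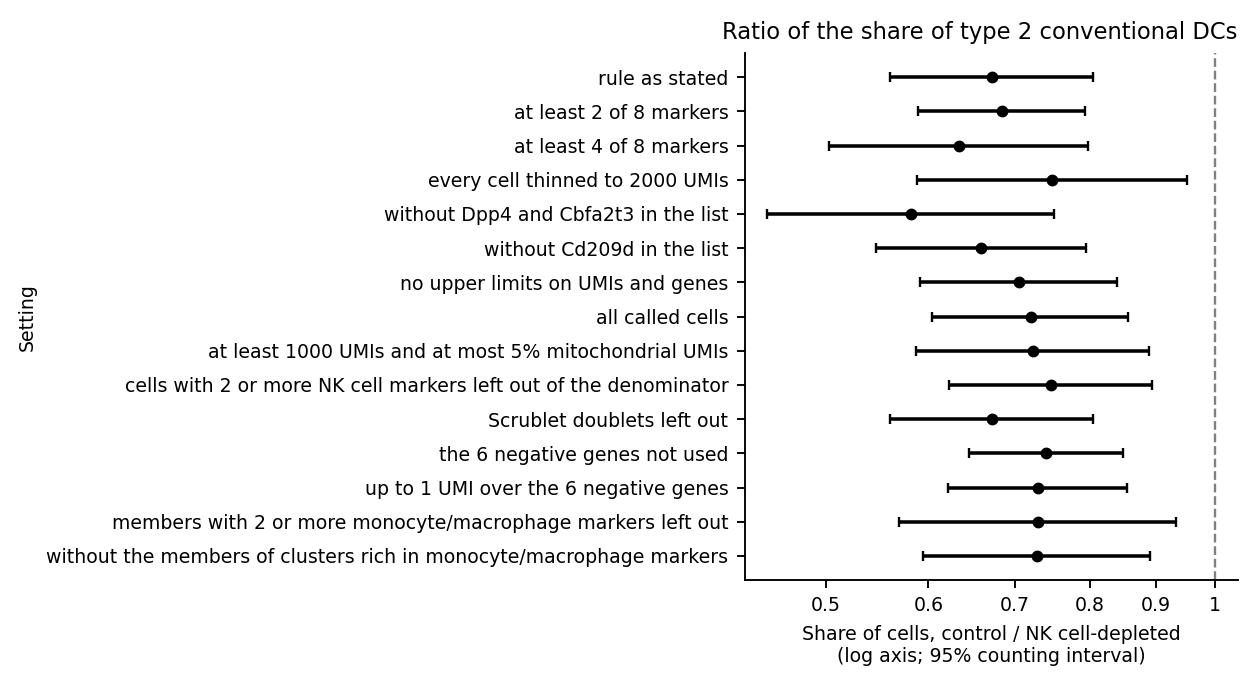
Ratio of the share of members among all cells, control over NK cell-depleted (log axis), for the rule as stated and for its alternatives (rows), with bars for 95% counting intervals and a dashed line at 1. The alternatives lie between 0.582 and 0.748.

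The summed expression of the members differed little between the libraries for most genes. Of 6684 genes with at least 50 UMIs over both, 43 (0.643%) were at least 2-fold higher in control members and 61 (0.913%) at least 2-fold lower. After each member was thinned to 2000 UMIs these were 21 and 62 of 3154 genes. The median log2 ratio, control over NK cell-depleted, was -0.06, with 5% to 95% of genes between -0.65 and 0.57, and 2908 genes (43.5%) lay above 0. A size factor from the median ratio of genes would add 0.047 to every log2 ratio. In monocytes and macrophages 197 of 10076 genes were at least 2-fold higher and 49 at least 2-fold lower.

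Among the genes higher in control members were 3 near-identical members of the *Bcl2a1* family, which encode the survival protein A1 and are known targets of NF-κB. *Bcl2a1d* had 146 UMIs (95.8 CPM) in control and 80 (40.6 CPM) in NK cell-depleted members, a log2 ratio of 1.23. *Bcl2a1b* had 264 and 157 UMIs, or 173 and 79.7 CPM, with a log2 ratio of 1.12. *Bcl2a1a* had 105 and 65 UMIs, or 68.9 and 33.0 CPM, with a log2 ratio of 1.06. The 3 genes together were at 338 and 153 CPM, 2.20-fold higher in control (1.91 to 2.55). *Bcl2a1b* was the higher in the control library in 5 of the 7 clusters, gave no UMI in the *Hp* cluster of either library, and was lower in the small cluster of dividing cells, at 52.5 against 106 CPM. The family was also higher in control monocytes and macrophages, with a median log2 ratio of 1.5, and in control migratory dendritic cells, with 0.78.

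The counts of these 3 genes cannot be kept apart with certainty, because their sequences are nearly the same. The last 300 bases of their transcripts, where the assay reads, were 99.3% identical between *Bcl2a1a* and *Bcl2a1d*, 97.4% between *Bcl2a1a* and *Bcl2a1b* and 98.0% between *Bcl2a1b* and *Bcl2a1d*. Their promoters share a stretch of 65 bases, shown here from RefSeq (GRCm38.p6), with the core of the cAMP response element, TGACG, in capitals. Over the 250 bases before the start, identity was 93.0% between *Bcl2a1a* and *Bcl2a1d*. It was 69.7% between *Bcl2a1a* and *Bcl2a1b* and 66.0% between *Bcl2a1b* and *Bcl2a1d*. The stretch ends 7 bases before the start of *Bcl2a1a* and of *Bcl2a1d* and 51 bases before that of *Bcl2a1b*. It lies at chr9:88956848-88956912 on the plus strand for *Bcl2a1a*, at chr9:89199157-89199221 on the plus strand for *Bcl2a1b* and at chr9:88731858-88731922 on the minus strand for *Bcl2a1d*.

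Bcl2a1a: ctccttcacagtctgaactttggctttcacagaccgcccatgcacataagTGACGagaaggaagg
Bcl2a1b: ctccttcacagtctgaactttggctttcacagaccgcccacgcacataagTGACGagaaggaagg
Bcl2a1d: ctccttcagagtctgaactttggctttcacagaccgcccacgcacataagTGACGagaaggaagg

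Over these 65 bases *Bcl2a1a* and *Bcl2a1b* differed at 1 position, *Bcl2a1b* and *Bcl2a1d* at 1 and *Bcl2a1a* and *Bcl2a1d* at 2. TGACG, searched on both strands in the 250 bases before each RefSeq start, was held by 5836 of 32851 promoters (17.8%), so its presence in 3 related promoters is a description only.

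Another 4 of the genes higher in control members, *Fabp5*, *Axl*, *Htra3* and *Ccl17*, had their highest level in the *Spint1* cluster. *Fabp5*, a fatty acid-binding protein, had 263 UMIs (173 CPM) in control and 146 (74.1 CPM) in NK cell-depleted members, a log2 ratio of 1.22, or 2.33-fold (1.89 to 2.87). *Axl* had 249 and 144 UMIs, or 163 and 73.1 CPM, 2.24-fold higher in control (1.81 to 2.76). *Htra3*, a secreted protease, had 88 and 50 UMIs with a log2 ratio of 1.18. In the *Spint1* cluster itself the gap was narrower, with 331 and 227 CPM of *Axl* and 320 and 202 CPM of *Fabp5*. With every cluster given the same weight in both libraries the log2 ratios were 0.61 for *Axl*, 0.76 for *Fabp5* and 0.36 for *Htra3*. Without the members that carried at least 2 monocyte markers they were 1.56, 1.31 and 2.36.

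*Ccl17*, a chemokine that draws CCR4-bearing T cells, had 348 UMIs in 39 control members and 204 UMIs in 15 NK cell-depleted members, a log2 ratio of 1.14. A few cells held most of it, since the 5 highest members carried 47.7% and 86.3% of the UMIs. Without those 5 cells of each library the log2 ratio was 3.05, and among members with at least 4 of the 8 markers it was 0.21. It was 4.36 without the members that carried at least 2 monocyte markers and 1.05 without both clusters rich in them. *Ccl22*, its neighbor in function, was level at 28.2 and 26.9 CPM. *Mt2*, a metallothionein, had 101 and 53 UMIs and a log2 ratio of 1.29, with 76.2% of the control UMIs in 5 cells and a log2 ratio of 0.02 without them. The remaining genes of the 12 highest, *Psip1*, *Hspb11*, *Golgb1* and *Nrp2*, had log2 ratios from 1.06 to 1.22.

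The gene lowest in control members, among those with at least 100 UMIs, was *Areg*, which encodes the growth factor amphiregulin, a ligand of the epidermal growth factor receptor. It had 20 UMIs (13.1 CPM) in 8 control members and 143 UMIs (72.6 CPM) in 23 NK cell-depleted members, a log2 ratio of -2.44, 5.53-fold higher in the latter (3.45 to 9.33). Its level was uneven among the clusters. The *Retnla* cluster had 7.95 CPM in control and 216 CPM in NK cell-depleted tumors, and the *Spint1* cluster had 1.81 and 62.5 CPM. In the *Egr3* and *Cd7* clusters the order was turned, on 7 against 10 UMIs (27.8 against 17.8 CPM) and 8 against 6 UMIs (34.2 against 20.9 CPM). The log2 ratio lay between -3.67 and -1.28 over the alternatives.

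The promoter of *Areg* is shown because it holds the full palindrome of the cAMP response element, TGACGTCA, which factors of the CREB family bind. It is given from RefSeq (GRCm38.p6) as the 250 bases that end at the start of the gene, chr5:91139349-91139598 on the plus strand, with the element in capitals.

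Areg: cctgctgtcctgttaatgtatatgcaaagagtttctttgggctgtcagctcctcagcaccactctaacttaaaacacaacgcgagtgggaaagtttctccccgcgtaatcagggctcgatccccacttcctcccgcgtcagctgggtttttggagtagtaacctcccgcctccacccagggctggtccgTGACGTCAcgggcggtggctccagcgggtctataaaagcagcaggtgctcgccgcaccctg

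The element begins 61 bases before the start. Of 32851 mouse promoters of this length, 508 (1.55%) held it. Among the 24 genes named for this comparison, 7 of the 12 lower ones had a promoter in the table and only that of *Areg* held it, and of the 9 promoters of the 12 higher ones 0 did. The shorter TGACG, which overlaps it, was in 3 of those 7 (*Areg*, *Sgk1* and *Dse*) and in 3 of those 9, the *Bcl2a1* genes.

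*Ptgs2*, which encodes the inducible cyclooxygenase COX-2, was expressed by the members themselves although the tumor cells had been made deficient in it. It had 250 UMIs (164 CPM) in 54 control members and 957 UMIs (486 CPM) in 109 NK cell-depleted members, a log2 ratio of -1.56, 2.96-fold higher in the latter (2.57 to 3.42). It was lower in the control library in each of the 7 clusters, for instance at 139 against 486 CPM in the *Egr3* cluster, 152 against 329 CPM in the *Spint1* cluster and 559 against 1285 CPM in the *Hpgd* cluster. Its log2 ratio lay between -2.27 and -1.37 over the alternatives, the lowest being that without members that carried at least 2 monocyte markers. In monocytes and macrophages it was -0.18 and in migratory dendritic cells 0.27.

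*Clec4a1*, an inhibitory lectin receptor gene, was likewise lower in the control library in all 7 clusters. It had 201 UMIs (132 CPM) in 111 control members and 587 UMIs (298 CPM) in 210 NK cell-depleted members, a log2 ratio of -1.17. *Clec4e*, which encodes the glycolipid receptor Mincle, had 60 and 200 UMIs, or 39.4 and 102 CPM, with a log2 ratio of -1.36. The matrix protein gene *Thbs1* had 42 and 197 UMIs, or 27.6 and 100 CPM, 3.63-fold higher in NK cell-depleted members (2.59 to 5.19). It was highest in the *Hp* cluster. Its log2 ratio of -1.85 was -0.12 without both clusters rich in monocyte markers and -1.13 without the members that carried at least 2 such markers. *Spp1*, with -1.19, had -0.82 and -0.04 under the same settings. *Arg1*, with 19 and 87 UMIs, had 97.7% of its NK cell-depleted UMIs in 5 cells, and its log2 ratio of -1.80 turned to 1.73 without the 5 highest cells of each library. *Mir142hg*, *Sgk1*, *Cd93*, *Sik1* and *Dse* completed the 12 lowest, with log2 ratios from -1.36 to -1.23.

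**Figure D4:**
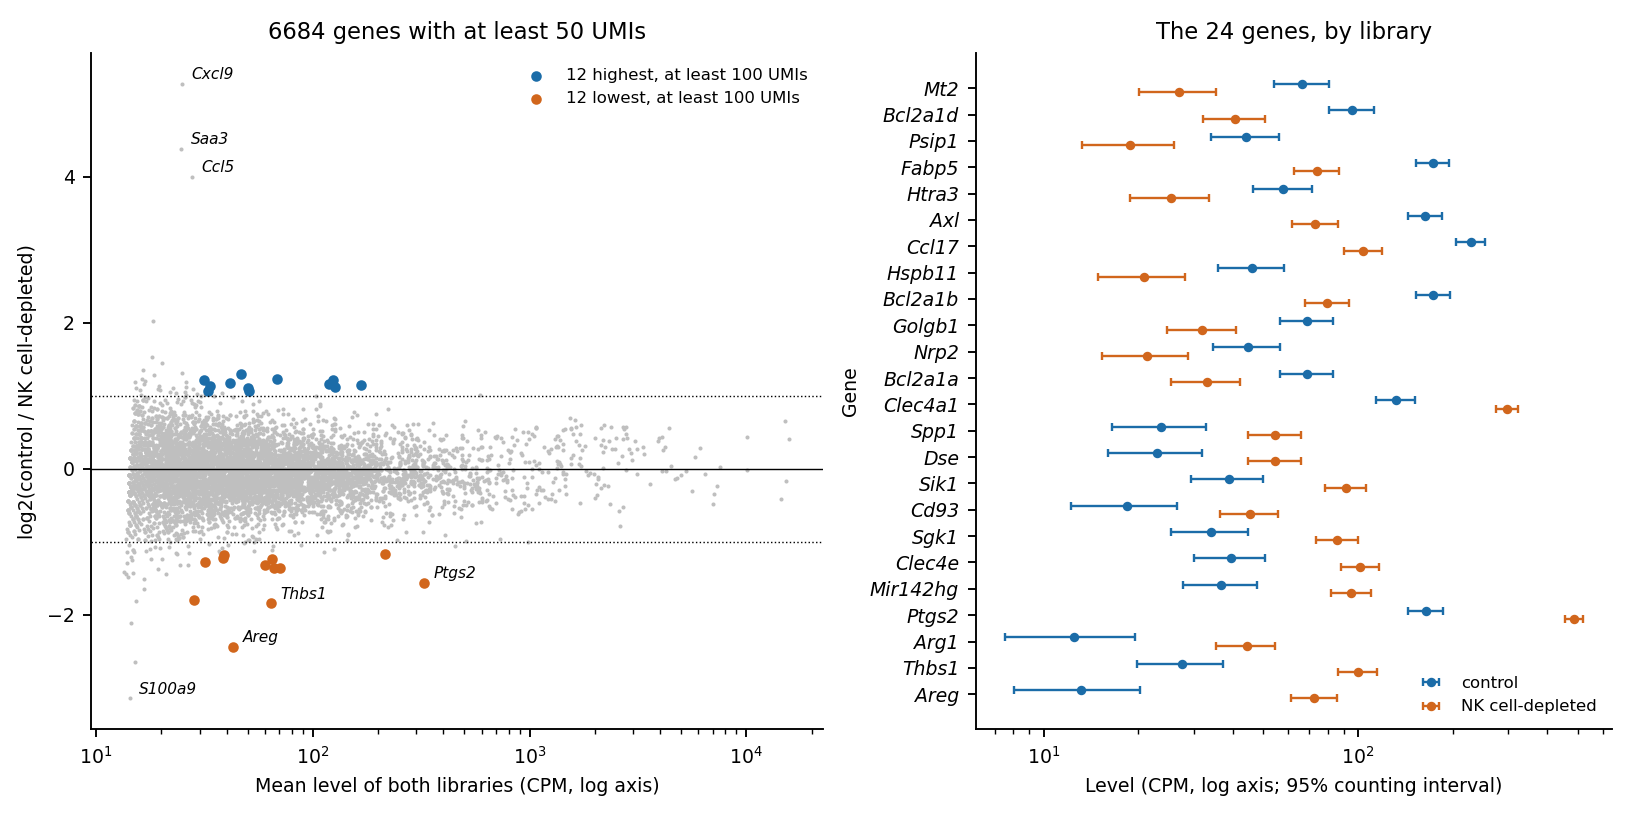
Level of each of 6684 genes in the members against its log2 ratio, control over NK cell-depleted, with the 24 genes named for the comparison in color and dotted lines at 2-fold, beside the CPM of those genes in both libraries with 95% counting intervals. *Areg* lies lowest of the 24, at -2.44, and *Ptgs2* lies at -1.56 at a higher level.

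Genes were then read by function, in lists that were described by their counts and medians. The median over all 6684 genes was -0.06, with 43.5% above 0. Few genes of the lists passed 2-fold. Of all 6684 genes, 0.643% were at least 2-fold higher in control members and 0.913% at least 2-fold lower. Lists were counted over their genes that met the same filter. In control members 2 of 30 IFN-γ targets, 3 of 14 chemokine and 2 of 7 tolerance genes were at least 2-fold higher. All 3 *Bcl2a1* genes were too. *Cxcl9*, with 74 and 2 UMIs, was counted among both the IFN-γ targets and the chemokines. *Ccl5*, with 80 and 6 UMIs, was among the chemokines. At least 2-fold lower were 3 of 12 cytokine, 2 of 13 lectin and 2 of 9 prostaglandin genes. So were 1 of 39 type I IFN, 1 of 14 chemokine and 1 of 7 tolerance genes. The lists of MHC class I and II, costimulation, maturation, transcription factors, receptors, metabolism, immediate early genes and the cell cycle had 0 genes past 2-fold in either direction.

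Antigen presentation on MHC class II was high and differed little. The list summed to 35148 CPM in control and 33473 CPM in NK cell-depleted members, a ratio of 1.05 (1.04 to 1.06). The median log2 ratio of the 14 of 16 genes with at least 50 UMIs was 0.02, with 9 above 0, and it lay between -0.12 and 0.07 over the alternatives. The ratio was 0.941 without the members that carried at least 2 monocyte markers and 0.980 without both clusters rich in them, so its direction rested on those cells. Genes of the same list differed in direction. *Cd74*, the invariant chain, had 11498 and 8544 CPM and a log2 ratio of 0.43, and was the higher in the control library in all 7 clusters. The class II transactivator gene *Ciita* had 348 and 260 CPM, and *H2-DMa*, which loads peptides, had 1097 and 777 CPM. *H2-Aa* and *H2-Oa* went the other way, with 6722 and 7927 CPM and with 59.1 and 82.8 CPM. *H2-Ab1* had 7629 and 7530 CPM. Outside this list, and in that of maturation given below, the protease inhibitor gene *Cst3* had 3247 and 2224 CPM, a log2 ratio of 0.55. It was higher in the control library in all 7 clusters.

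MHC class I and the IFN-γ targets did not differ as 1 group. The 19 class I genes had a median log2 ratio of 0.00, and the abundant *B2m*, *H2-K1* and *H2-D1* had -0.41, -0.35 and -0.30, with *B2m* at 1726 and 2291 CPM. Of the 45 IFN-γ targets 30 had at least 50 UMIs. Their median log2 ratio was 0.06, with 19 above 0, and 2 were at least 2-fold higher in control members and 0 lower. The sum of the list went the other way, at 7518 and 8495 CPM, a ratio of 0.885 (0.864 to 0.906), and *B2m*, *H2-K1* and *H2-D1* made up 61.1% of it. *Irf1*, a transcription factor that IFN-γ turns on, had 68.9 and 41.1 CPM, and *Gbp2*, a guanylate-binding protein, had 33 and 20 UMIs with a log2 ratio of 1.08. The receptor gene *Ifngr1* was at 290 and 301 CPM.

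*Cxcl9*, a chemokine that IFN-γ induces and that draws CXCR3-bearing T and NK cells, had 74 UMIs in 3 control members and 2 UMIs in 2 NK cell-depleted members, a log2 ratio of 5.27 (47.8-fold, 12.8 to 402). The difference thus lay in 3 cells, and 56 of the 74 UMIs lay in the *Spint1* cluster and 18 in the *Cd7* cluster. In monocytes and macrophages its log2 ratio was 3.62. *Cxcl10* was level, with 80 UMIs in 12 members and 93 UMIs in 25 members, a ratio of 1.11 (0.814 to 1.52). *Ccl5*, a chemokine that NK cells also make, had 80 UMIs in 8 control members and 6 UMIs in 5 NK cell-depleted members, a log2 ratio of 4.00. The NK cell markers above lay in a few control members too, and their part in this difference was not tested. The acute phase gene *Saa3*, in none of the lists and chosen after its value was seen, had 72 and 4 UMIs. *Cxcl9* and *Ccl5* reached 50 UMIs only through the control library.

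Targets of type I IFN had a median log2 ratio of -0.09 over 39 of 48 listed genes, with 15 above 0. The sign depended on the setting, since the median was 0.12 among members with at least 4 of the 8 markers and 0.15 with every cluster given the same weight. They summed to 4534 and 4384 CPM, a ratio of 1.03 (1.0 to 1.07). *Rsad2*, which encodes the antiviral protein viperin, had 31.5 and 64.5 CPM and was the 1 gene past 2-fold, whereas *Ifi27l2a* had 1138 and 856 CPM. Single members varied far more than the libraries. The list made up 1354 CPM at the 10th and 10860 CPM at the 90th percentile of control members, and 1433 and 9113 CPM in NK cell-depleted members.

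Maturation genes were mostly lower in control members. Of the 20 listed, 19 had at least 50 UMIs, with a median log2 ratio of -0.27 and 4 above 0. The list summed to 6621 CPM in control and 7050 CPM in NK cell-depleted members, a ratio of 0.939 (0.915 to 0.964). *Cst3*, given above and the most abundant gene of the list, was among those higher in control members. *Cd83*, a surface marker of activated dendritic cells, had 499 and 969 CPM and was 1.94-fold higher in NK cell-depleted members (1.78 to 2.12). It was so in 6 of the 7 clusters, all but the *Retnla* cluster, where it had 449 and 364 CPM. *Tnfaip3*, the feedback inhibitor of NF-κB known as A20, had 284 and 531 CPM, and *Nfkbia*, another such inhibitor, had 729 and 1089 CPM. *Relb*, *Nfkb2* and *Birc2* stood within their counting intervals, with log2 ratios of 0.14, -0.17 and 0.26. Of the costimulatory ligands, *Cd86* had 91.2 and 137 CPM, and *Cd40* had 35.5 and 37.6 CPM, which did not differ beyond counting error (ratio 0.943, 0.652 to 1.36).

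Immediate early genes, which cells switch on within minutes of a stimulus, were also mostly lower in control members. The median log2 ratio of 28 immediate early and heat shock genes was -0.33, with 8 above 0. *Nr4a1*, an orphan nuclear receptor, had 656 and 1313 CPM, a log2 ratio of -1.0, and was lower in the control library in all 7 clusters. *Dusp1*, a phosphatase that ends stress kinase signals, had 1921 and 3306 CPM, and *Junb* had 2076 and 3106 CPM. *Jun* went against them with a log2 ratio of 0.25, and *Hspa8* was level at 0.03. Monocytes and macrophages had a median of -0.22 for the same list.

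Genes of the cytokine list were lower in control members for 8 of 12, with a median log2 ratio of -0.45. The median was -0.24 without the members that carried at least 2 monocyte markers and -0.30 without both clusters rich in them. Besides *Areg*, *Il6* was at 33.5 and 73.6 CPM, on 15 and 30 members with a UMI. Over both libraries *Il6* was at 244 CPM in the *Retnla* cluster and at 17.0 CPM in the other members. The IL-1 receptor antagonist gene *Il1rn* was at 40.7 and 88.9 CPM. *Il1b* had 1791 and 2307 CPM and *Tnf* 61.7 and 103 CPM. *Osm*, a cytokine of the IL-6 family, was the reverse, with a log2 ratio of 0.47. *Il15* and *Il18*, which act on NK cells, had -0.65 and -0.53. The median of the 14 chemokine genes was -0.01, and it lay between -0.34 and 0.16 over the alternatives. Among them *Ccl2* and *Ccl7*, which draw monocytes, had 170 and 289 CPM and 79.4 and 170 CPM. *Ccl4* had 535 and 777 CPM, and *Cxcl2* had a log2 ratio of 0.42.

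Of the receptors that place these cells, *Ccr2*, used to leave the bone marrow, was level at 1378 and 1521 CPM. *Cxcr4*, which holds cells in the marrow, had 158 and 270 CPM. *Gpr183*, an oxysterol receptor that positions this lineage in lymphoid tissue, had a log2 ratio of -0.51. The median of the 14 chemoattractant receptor genes was -0.13, with 4 above 0. Among the receptors for growth factors, *Csf1r* and *Csf2rb* had log2 ratios of -0.12 and 0.33.

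The transcription factors of the lineage had a median log2 ratio of -0.15 over 21 of 23 listed genes, with 7 above 0. *Zbtb46* did not differ beyond counting error, with a ratio of 1.11 (0.807 to 1.54), and *Irf8* had a log2 ratio of 0.08. *Irf4* had a log2 ratio of -0.30. *Klf4*, which part of this lineage needs, had 714 and 1074 CPM, *Cebpb* had 227 and 416 CPM and *Nr4a3*, a factor of migrating dendritic cells, had 259 and 429 CPM. *Id2* was slightly higher in control members, with 0.24.

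Lectins and other pattern receptors had a median of -0.13 over 13 of 25 listed genes. *Mgl2* had 1023 and 699 CPM, 1.46-fold higher in control (1.36 to 1.57), while *Clec10a* had 450 and 509 CPM. *Clec4n*, the fungal receptor Dectin-2, had 139 and 76.7 CPM. *Tlr2*, a receptor for bacterial lipoproteins, had 115 and 120 CPM, and *Mrc1*, the mannose receptor, had 570 and 562 CPM.

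Among genes that make, break down or sense prostaglandins, 9 of 20 had at least 50 UMIs, with a median of -0.16. *Hpgd*, which inactivates prostaglandin E2, had 16 UMIs (10.5 CPM) in control and 55 UMIs (27.9 CPM) in NK cell-depleted members, a log2 ratio of -1.38. It reached 50 UMIs only through the NK cell-depleted library. Its level was highest in the *Hpgd* and *Hp* clusters, at 163 and 71.7 CPM. The receptor gene *Ptger4* was at 98.5 and 122 CPM. *Ptgs1*, the constitutive cyclooxygenase, was low in both, at 9.85 and 18.3 CPM. *Lta4h*, an enzyme of leukotriene synthesis, was at a log2 ratio of 0.50.

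Metabolic genes were mostly higher in control members. Of 53 genes of oxidative phosphorylation 44 had a log2 ratio above 0, with a median of 0.37, and their sum was 1.25-fold higher (1.22 to 1.27). *Cox7b*, a subunit of cytochrome oxidase, had 284 and 161 CPM, whereas *Atp5a1* and *Atp5b*, of the ATP synthase, had log2 ratios of -0.27 and -0.23. The list made up a median of 13955 CPM per control member and 11114 CPM per NK cell-depleted member. Genes of hypoxia and glycolysis had a median of 0.25, with 18 of 22 above 0. *Eno1* had 140 and 75.7 CPM and *Gapdh* had 954 and 705 CPM. Their median was -0.11 when every cluster had the same weight, and between 0.13 and 0.35 under the other alternatives. In monocytes and macrophages the medians of both lists were 0.21 and 0.59. They were 0.21 and 0.51 in cDC1, 0.25 and 0.61 in migratory dendritic cells and 0.27 and -0.0036 in T cells. The higher median of oxidative phosphorylation in the control library was thus not particular to the members. Mitochondrial transcripts were not part of these lists.

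Genes of tolerance and the retinoic acid pathway were few. Only 7 of 17 had at least 50 UMIs, with a median of 0.01, which was 0.93 without the members that carried at least 2 monocyte markers and 0.78 without both clusters rich in them. *Aldh1a2*, which makes retinoic acid, had 26.9 and 22.3 CPM. *Kynu*, which breaks down kynurenine, had 35 and 19 UMIs, a log2 ratio of 1.23. *Hmox1*, heme oxygenase, had 72.2 and 136 CPM. *Ido1*, an enzyme that depletes tryptophan, had 0 UMIs in control and 1 UMI in NK cell-depleted members. The cell cycle list had a median of -0.01 over 19 genes, with 9 above 0, and it lay between -0.18 and 0.62 over the alternatives.

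**Figure D5:**
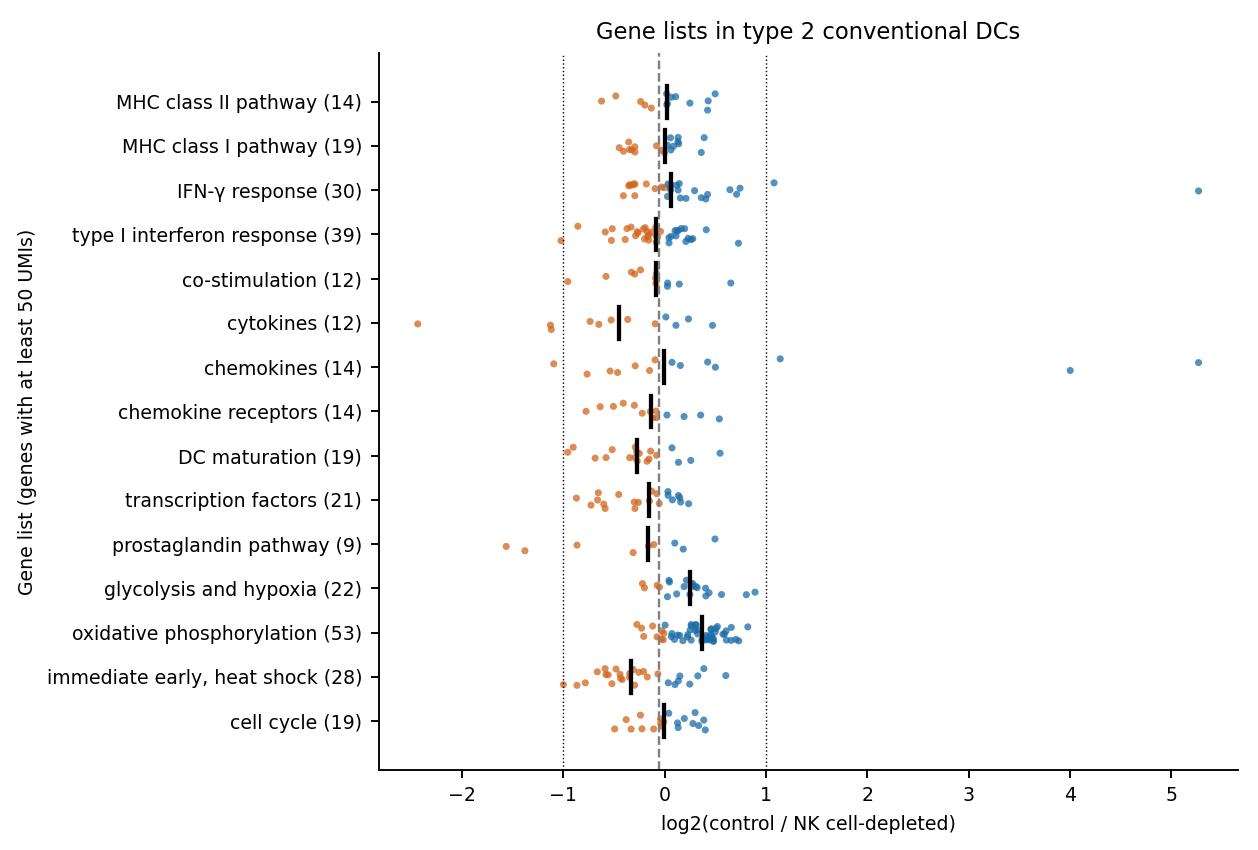
Log2 ratio, control over NK cell-depleted, of the genes of each functional list in the members, with 1 point per gene with at least 50 UMIs (blue above 0, orange below), a bar at the median of the list, a dashed line at the median of all 6684 genes and dotted lines at 2-fold. Oxidative phosphorylation has a median of 0.37, immediate early and heat shock genes -0.33 and cytokines -0.45.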

How the data were processed

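Leukocytes from control and NK cell-depleted hosts gave 1 library each. The authors deposited UMI counts of the cells that Cell Ranger had called. The file headers name release 3.0.2, the study's methods name another, and the submitters' processing notes name the build mm10. A normalized log2 table that the authors also deposited was not used here. Tumors were pooled before sorting, so the spread between tumors is not in the data.

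Following the study, cells needed between 500 and 15000 UMIs, between 200 and 4000 genes and a mitochondrial share of up to 10%. Members were found by the rule given above. The members and gene lists were chosen with earlier results of these data known. Of the listed genes, 4 were not analysed here. Some other genes are not reported here. Counts were summed over members and scaled to 1000000. Log2 ratios had 0.5 UMI added to each sum. Shares carry Clopper-Pearson intervals and ratios exact conditional binomial intervals, both for counting error only. A count of 0 allows 3 UMIs. The genes named were the 20 highest over other cells among genes in at least 10% of members, the 12 highest and 12 lowest log2 ratios among genes with at least 100 UMIs, and genes of the lists. Genes of the rule were left out of the first of these, ribosomal and mitochondrial genes of the second, and unnamed genes of both.

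Clusters came from Leiden partitions (resolution 1.0 for all cells with 2000 variable genes and 15 components, 0.6 for members with 1500 and 10, both with 20 neighbors). Scrublet, with an expected rate of 5%, called 0 members. The cell-kind rules for comparison needed 2 cDC1 or 3 migratory markers, and other kinds were taken by markers. The cDC1 rule also required 0 UMIs of *Cd209a*. The code was tested on simulated data. Tools were python 3.11.15, numpy 2.4.6, scipy 1.17.1, scanpy 1.11.5, leidenalg 0.10.2, igraph 0.11.9, scikit-learn 1.9.0 and matplotlib 3.10.9. Alternatives to the rule, the scaling and the filters are given in the closing section.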

Additional observations from a re-analysis of the deposited data

Results flagged for a closer look

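Cells above the upper limits of the quality filter were outside every comparison, yet some met the marker rule. In the control library 13 of 212 such cells did (6.13%, 3.31 to 10.3) and in the NK cell-depleted library 13 of 353 (3.68%, 1.98 to 6.22). With the upper limits removed the ratio of shares was 0.705.

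Several genes named for the members had the opposite direction in other cells of the same libraries. Only kinds of cells with at least 50 cells in each library were compared, a floor chosen after the values were seen, and none of these differences between kinds was tested. *Thbs1* had a log2 ratio, control over NK cell-depleted, of -1.85 in the members and 1.84 in migratory dendritic cells. *Clec4e* had -1.36 and 1.49 in the same pair. *Arg1* had -1.80 in the members, 3.08 in migratory dendritic cells and 1.22 in monocytes and macrophages. The values of these 3 genes in migratory dendritic cells came from 76 and 54 cells with no floor of UMIs per gene. They rested on few UMIs. In monocytes and macrophages *Sgk1* had 0.25 against -1.32 in the members, *Cd93* had 0.12 against -1.28, and *Spp1* had 0.54 against -1.19. Without the members that carried at least 2 monocyte markers, *Thbs1* had -1.13, *Arg1* 1.53 and *Spp1* -0.04 in the members, and without both clusters rich in such markers -0.12, 0.78 and -0.82, while *Clec4e*, *Sgk1* and *Cd93* stayed below 0 under every alternative run.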

How the results depend on the processing

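With 1 library per group no replicate could be left out and no test was run. No paired analysis was possible because each group has 1 library. The ratio of shares stayed below 1 under all 14 alternatives, from 0.582 to 0.748, and moved within its interval. The counts of genes past 2-fold followed the filter. With at least 20 UMIs they were 144 higher and 174 lower, with at least 100 UMIs 15 and 27, and with no filter 1415 and 1413. Thinned members gave 21 higher.

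The summed IFN-γ list (0.885) came to 0.940 with at least 4 of 8 markers, 0.914 with the median-ratio size factor and 0.946 with equal weights for the member clusters. The type I IFN list (1.03) came to 1.13, 1.07 and 1.21 under the same 3 settings. The MHC class II list (1.05) came to 1.0, 1.08 and 1.04, and fell below 1 without members with at least 2 monocyte markers (0.941) and without both clusters rich in them (0.980). Of the named genes *Mt2* turned to -0.56 without members with at least 2 monocyte markers. *Arg1* turned to 1.53 there, to 0.78 without both clusters and to 1.73 without its 5 highest cells in each library. Equal cluster weights and leaving out those clusters, also from the share, were chosen after seeing the data. The causes were not tested.

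The floor of 50 UMIs over both libraries held for the list medians and the main counts past 2-fold in the members. It was not applied to the values of single genes in other kinds of cells. The 20 UMIs of *Areg* in control members limit its fold to within its wide interval.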
